A study of Homo sapiens with 4 samples.

Results

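The mitosis genes are 40 genes whose products drive chromosome segregation and cell division, and they were taken by gene symbol from the 33694 genes counted in OVCA420 cells. OVCA420, a line derived from an epithelial ovarian cancer, was profiled by 3′ single-cell RNA-seq without TGF-β1 (Ctrl) and after 1, 3 or 7 days with 10 ng/mL TGF-β1 (1-day, 3-day and 7-day). Each time point is 1 library, 4 in all. Starts of treatment were staggered so that all cells were collected together, and cultures were split when needed but not shortly before collection. TGF-β1 and the particular culture, chip lane or library therefore cannot be told apart, no test between libraries was possible, and intervals cover counting error only. The count matrices used here hold the first 941, 945, 712 and 572 cells of Ctrl, 1-day, 3-day and 7-day in barcode order, out of 3372, 2601, 2253 and 2484 barcodes listed. All 40 mitosis genes passed the minimum of 100 UMIs over the libraries, as did 13044 genes in all, and the sparsest of the 40, CDC25C, had 509 UMIs. A UMI (unique molecular identifier) marks a single captured mRNA molecule.

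During division, CDK1 bound to a cyclin opens mitosis, the Aurora and Polo kinases build the spindle, and kinetochores tie chromosomes to it. The spindle checkpoint holds back the anaphase-promoting complex (APC/C) until chromosomes are aligned, after which securin and the cyclins are destroyed and the cell is cleaved. Transcripts of these genes accumulate in G2 and mitosis and are held low in resting cells by the DREAM complex, and TGF-β is a textbook inhibitor of epithelial proliferation that acts in G1.

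After removal of cells over 20% mitochondrial UMIs, 933, 937, 705 and 569 cells remained, with 25382817 to 32949874 UMIs per library and median depths of 30270, 32393, 43553 and 43382 UMIs per cell. Because depth differed, shares of positive cells were computed after thinning each cell to 18000 UMIs, which kept 844, 900, 677 and 549 cells. Scrublet marked 0.857% to 2.46% of the cells as doublets. Between 1 and 7 retained barcodes were shared by any pair of libraries. Of 9 epithelial markers, 8 were detected in every library (WT1 was at 0, and PAX8 stayed between 0.124 and 0.333 CPM), with summed levels of 3977, 5789, 4692 and 4278 CPM. Those at 1 CPM or more numbered 7 in Ctrl and 6 in each treated library. The 10 markers of immune, endothelial and stromal cells summed to 7.70, 1.88, 1.59 and 1.69 CPM, of which 5.37 CPM in Ctrl came from CDH5.

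Promoters of mitosis genes typically carry a cell cycle homology region (CHR, core TTTGAA), which the DREAM and MuvB complexes bind, and CCAAT boxes, which NF-Y binds. RefSeq promoter windows on GRCh38.p14, running from 250 bases before to 50 bases after the transcription start, matched 35 of the 40 genes. AURKA, BIRC5, TPX2, TTK and UBE2C had no entry. On either strand, TTTGAA was found in 25 of 35 windows (71.4%) beside 15.4% of all 27305 promoters, and CCAAT in 27 of 35 (77.1%) beside 35.7%. Both motifs stood in 21 of 35 (60.0%) beside 6.08%. The E2F-like GCGGGAA was in 2 of 35 (5.71%) beside 6.56%. The motifs can overlap: in MKI67 a TTTGAA runs into the reverse complement of CCAAT. A match describes the letters in the window and not a bound site.

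The 100 bases that end at the start are shown for 5 members, chosen because CDK1 and CDC20 are the extremes of the 1-day response, TOP2A is the most abundant, and CKS2 and MKI67 hold both motifs. Each is written 5′ to 3′ on the strand of its gene, and capitals mark the CHR core and the CCAAT box on either strand. The windows are chr1:43358881-43358980 (plus strand) for CDC20, chr9:89311095-89311194 (plus) for CKS2, chr10:128126424-128126523 (minus) for MKI67, chr17:40417897-40417996 (minus) for TOP2A and chr10:60778231-60778330 (plus) for CDK1.
CDC20: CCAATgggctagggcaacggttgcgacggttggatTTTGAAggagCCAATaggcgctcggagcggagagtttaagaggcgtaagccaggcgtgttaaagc
CKS2: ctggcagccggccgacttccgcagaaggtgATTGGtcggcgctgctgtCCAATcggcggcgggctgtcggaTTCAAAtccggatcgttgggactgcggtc
MKI67: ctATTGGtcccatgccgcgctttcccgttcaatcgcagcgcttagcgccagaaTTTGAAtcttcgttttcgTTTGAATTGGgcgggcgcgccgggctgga
TOP2A: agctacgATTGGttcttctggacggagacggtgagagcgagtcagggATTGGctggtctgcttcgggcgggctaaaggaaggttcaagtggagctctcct
CDK1: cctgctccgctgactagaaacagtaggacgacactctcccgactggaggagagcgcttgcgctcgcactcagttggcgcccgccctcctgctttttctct
CDC20, CKS2 and MKI67 each held at least 1 TTTGAA and 2 CCAAT within these 100 bases. TOP2A held 2 CCAAT and CDK1 held neither here, although both had a TTTGAA further upstream in the 300-base window.

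All 40 mitosis genes had a lower level in 1-day than in Ctrl, and most were less than 2-fold from the Ctrl level in 3-day and 7-day. The level of a gene is the sum of its UMIs in a library, scaled to 1000000 UMIs (CPM), and these 3′ counts are not divided by gene length. Together the 40 genes took 0.288% of UMIs in Ctrl, 0.131% in 1-day, 0.263% in 3-day and 0.280% in 7-day. The median log2 ratio to Ctrl was −1.07 in 1-day, −0.10 in 3-day and 0.11 in 7-day, beside −0.07, 0.00 and 0.08 over all 13044 genes. After thinning, the medians were −1.14, −0.20 and 0.17 for the members, beside −0.07, 0.01 and 0.10 for all genes.

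A gene was called when it was at least 2-fold lower or higher. In 1-day against Ctrl, 24 of 40 mitosis genes were called lower and 0 higher, where 10.8% of all genes were called lower and 10.5% higher. The log2 ratios ran from −1.83 (CDK1) to −0.37 (CDC20), and the 95% counting interval lay below 0 for all 40. In 3-day against Ctrl, 0 were called in either direction, beside 8.91% lower and 11.2% higher over all genes. In 7-day against Ctrl, 1 member (KIF20A) was called lower and 0 higher, beside 8.18% and 13.1%.

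The genes did not stay at the 1-day level. Against 1-day, 16 of 40 were called higher in 3-day and 0 lower (all genes 5.77% and 4.78%), with a median log2 ratio of 0.89. In 7-day against 1-day, 26 were called higher and 0 lower (all genes 11.7% and 7.17%), with a median of 1.09 and a range from 0.16 (CCNB2) to 1.84 (ANLN). Between 3-day and 7-day, 0 were called in either direction (all genes 2.69% higher and 1.85% lower), and the median was 0.14. These comparisons share libraries and are not independent of each other.

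The size of the 1-day difference varied within the library. With each library divided at the middle of its barcode order, the median 1-day log2 ratio was −1.34 in the first part of the cells and −0.74 in the second. The members called lower numbered 31 and 11, with 11 called in both parts. All 40 were below Ctrl in both parts. Against 1-day, the members called higher numbered 25 and 7 in 3-day, and 30 and 12 in 7-day. The share of all genes called within the parts is not given. The median 1-day log2 ratio of all genes to Ctrl was −0.06 in the first part and −0.07 in the second. The median gap between parts in the 1-day ratio was 0.57 per member and the widest was 1.10 (UBE2C). The median gap was wider than the whole-library 1-day counting interval of most members, although the intervals of the parts are wider. Counting intervals of levels and ratios treat UMIs as independent and leave out the spread between cells. In 1-day the 10 cells with the most UBE2C UMIs, of 937, held 30.0% of them. The cause of the gap was not tested.

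**Figure D1:**
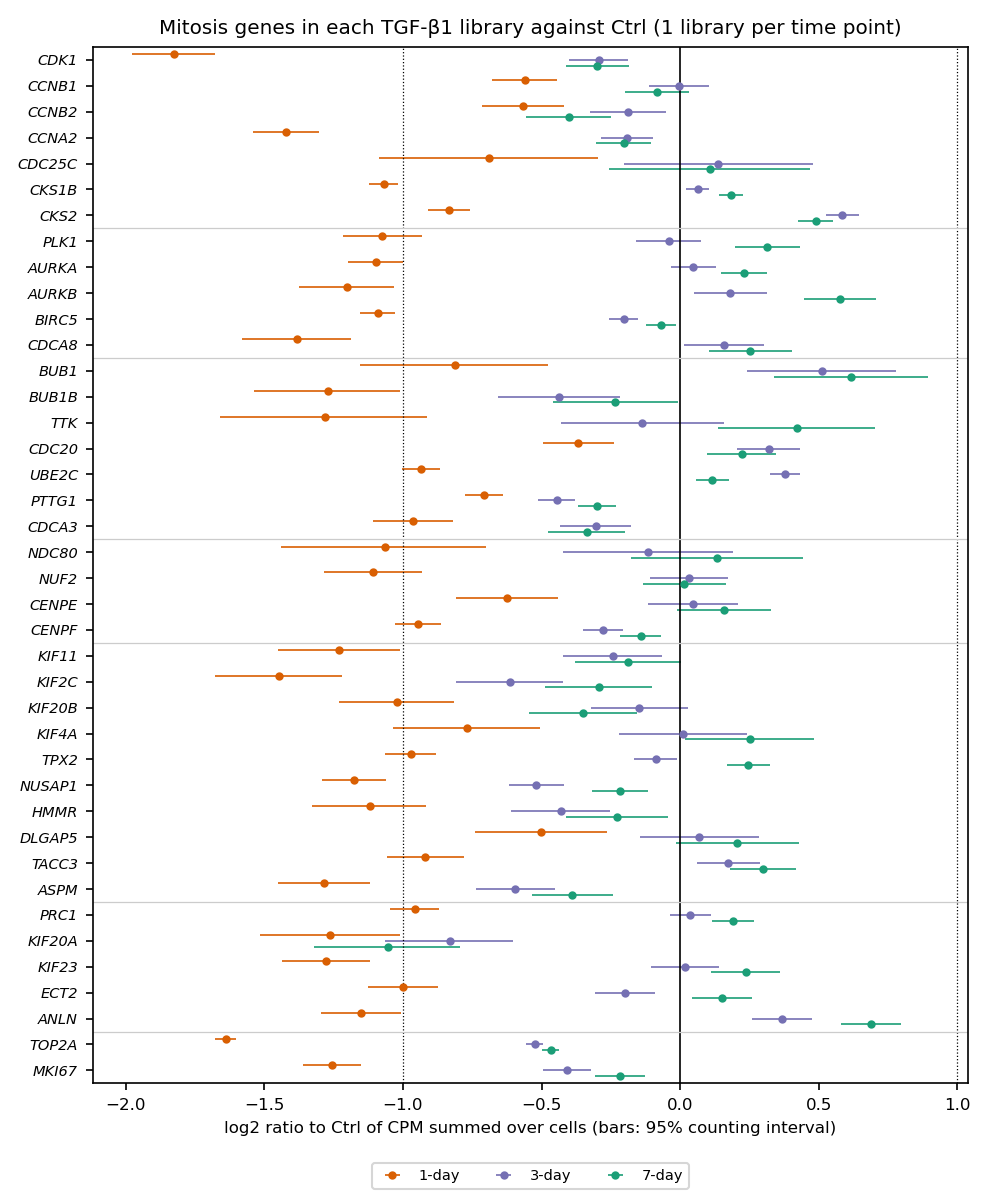
Log2 ratio to Ctrl of the summed CPM of each of the 40 mitosis genes in 1-day, 3-day and 7-day, with 95% counting intervals as bars, 1 library per time point and dotted lines at 2-fold. The 1-day points all lie left of 0, from −1.83 to −0.37, while the 7-day points lie on both sides of it, from −1.05 to 0.69.

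CDK1 and its activators were lower in 1-day to unequal degrees. CDK1, the kinase that opens mitosis, was at 52.0 CPM in Ctrl, 14.7 in 1-day, 42.4 in 3-day and 42.2 in 7-day. Its 1-day log2 ratio was −1.83 (95% counting interval −1.98 to −1.68), and both later libraries remained below Ctrl by about 0.30. CCNA2 (cyclin A2, a partner of CDK1 and CDK2) followed it, at 65.8, 24.6, 57.6 and 57.1 CPM. The B-type cyclins, which are the mitotic partners of CDK1, differed less. CCNB1 was at 45.6, 30.9, 45.4 and 43.0 CPM, and its 3-day and 7-day intervals against Ctrl both included 0. CCNB2 was at 29.9, 20.2, 26.3 and 22.7 CPM, with a 7-day to 1-day log2 ratio of 0.16 (0.00 to 0.33), the lowest of the 40. CCNB2 in 7-day thus sat closer to 1-day than to Ctrl on the CPM scale.

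The order among these genes within a library can be read from UMI ratios, which do not depend on how libraries are scaled. These pairs, and the pairs of members given below, were chosen after their values were seen. CDK1 had 1.14 UMIs per CCNB1 UMI in Ctrl (1.06 to 1.23), 0.474 in 1-day (0.425 to 0.529), 0.934 in 3-day and 0.983 in 7-day. CCNA2 had 1.44, 0.795, 1.27 and 1.33 UMIs per CCNB1 UMI. In both pairs only the 1-day library put CCNB1 ahead by an interval that excluded 1. In 1-day against Ctrl, CDK1 (−1.83) was the lowest of this group, CCNB1 (−0.56) was the nearest to 0 and CCNA2 was at −1.42. Lower 1-day ratios in both pairs therefore follow from the choice of genes. The small CDK-binding subunits CKS1B (293, 140, 307 and 333 CPM) and CKS2 (124, 69.3, 185 and 174 CPM) were above Ctrl in 7-day. CKS2 had the highest 3-day log2 ratio of all members, 0.58, but after thinning it was at 0.33 and BUB1 was highest, at 0.67. The 3-day ratio of CKS1B, 0.06, turned to −0.037 after thinning and −0.027 as a mean over cells. CDC25C, the phosphatase that activates CDK1, was sparse, at 4.50, 2.79, 4.95 and 4.85 CPM.

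The 5 genes of the mitotic kinases and the chromosomal passenger complex were all called lower in 1-day (all genes 10.8%). All 5 were called higher in 7-day than in 1-day (all genes 11.7%). PLK1, the Polo kinase, was at 39.4, 18.7, 38.2 and 49.0 CPM. AURKA, the spindle-pole Aurora kinase, was at 78.9, 36.8, 81.6 and 92.6 CPM. AURKB, the kinase of the passenger complex, was at 29.2 CPM in Ctrl, 12.7 in 1-day, 33.1 in 3-day and 43.5 in 7-day. The 7-day log2 ratio was 0.58 (0.45 to 0.71). Its partners in the complex had lower 7-day ratios. BIRC5 (survivin) was at 204, 95.6, 177 and 194 CPM, with a 7-day log2 ratio of −0.07 (−0.12 to −0.01) that was 0.019 in the first part of the cells. CDCA8 (borealin) was at 24.1, 9.26, 26.9 and 28.8 CPM, with 0.25 (0.10 to 0.40).

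Of the 7 genes of the spindle checkpoint and anaphase, 2 were called lower in 1-day, BUB1B and TTK. TTK (MPS1, the kinase that starts checkpoint signalling) was at 6.57, 2.70, 5.97 and 8.79 CPM, with a 1-day log2 ratio of −1.28 (−1.66 to −0.91). BUB1B (BUBR1, a subunit of the checkpoint inhibitor) was at 13.0, 5.37, 9.58 and 11.0 CPM. BUB1, a kinetochore kinase of the checkpoint, was at 6.40, 3.64, 9.12 and 9.81 CPM, higher than Ctrl in both later libraries.

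The other 4 genes of this group, among them partners and substrates of the APC/C, were not called in 1-day. After thinning, UBE2C (−1.09) and CDCA3 (−1.13) passed the 2-fold limit, while PTTG1 (−0.78) and CDC20 (−0.32) did not. CDC20, the activator of the APC/C in mitosis, was at 36.0, 27.9, 44.9 and 42.0 CPM, with a 1-day log2 ratio of −0.37 (−0.50 to −0.24), the nearest to 0 of the 40. PTTG1 (securin, which restrains separase) was at 139, 85.3, 102 and 113 CPM and was below Ctrl in every treated library, by 0.71, 0.44 and 0.30 on the log2 scale. UBE2C, the ubiquitin-conjugating enzyme of the APC/C, was at 160, 83.9, 208 and 174 CPM. CDCA3, a mitotic-entry protein, was at 35.7, 18.3, 28.9 and 28.3 CPM. CDK1 had 1.44 UMIs per CDC20 UMI in Ctrl and 0.526 in 1-day, with 0.945 in 3-day and 1.01 in 7-day. CDK1 and CDC20 are the extremes of the 40 in 1-day against Ctrl, so a lower 1-day ratio follows from that choice.

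At the kinetochore, NDC80 and NUF2, which form a dimer that grips microtubules, were called lower in 1-day and CENPE and CENPF were not. NDC80 (−1.07, −1.44 to −0.70) and CENPF (−0.95, −1.03 to −0.86) lay on either side of the limit with overlapping intervals. With size factors NDC80 was at −0.98 and was not called. NDC80 was at 6.03, 2.88, 5.57 and 6.62 CPM and NUF2 at 26.0, 12.1, 26.6 and 26.3 CPM, so that both were within counting error of Ctrl in 3-day and 7-day. CENPE, a kinetochore motor, was at 19.6, 12.7, 20.3 and 21.9 CPM. CENPF, a large kinetochore protein, was at 112, 58.0, 92.0 and 101 CPM and stayed slightly below Ctrl, at −0.14 (−0.22 to −0.07) in 7-day.

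Of 10 spindle motors and spindle proteins, 6 were called lower in 1-day and 5 were called higher in 7-day than in 1-day. KIF2C (MCAK, a microtubule depolymerase) had the lowest 1-day ratio among them (−1.45), at 18.2, 6.68, 11.9 and 14.9 CPM. TPX2, which activates Aurora A, was at 88.7, 45.2, 83.4 and 105 CPM, and TACC3, a stabiliser of spindle fibres, was at 38.5, 20.4, 43.4 and 47.4 CPM. Both were above Ctrl in 7-day, as was the chromokinesin KIF4A (10.1, 5.95, 10.2 and 12.1 CPM).

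The other 7 of this group gave a different 7-day order. ASPM, a spindle-pole protein, was at 32.4, 13.3, 21.5 and 24.8 CPM, and its 7-day log2 ratio of −0.39 (−0.54 to −0.24) was the lowest of the group. KIF20B, a kinesin of late mitosis, was at 18.4, 9.04, 16.6 and 14.4 CPM. KIF2C, NUSAP1 (microtubule bundling) and HMMR (a spindle-pole protein) also had 7-day intervals below Ctrl, with log2 ratios of −0.29, −0.22 and −0.23. The interval of KIF11 (Eg5, the motor that separates spindle poles) reached 0, and DLGAP5 (HURP, a kinetochore-fibre protein) included 0, with log2 ratios of −0.19 and 0.21.

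The 5 genes of the central spindle and cytokinesis held both extremes of the 7-day library. ANLN (anillin, the scaffold of the cleavage furrow) was at 40.2 CPM in Ctrl, 18.1 in 1-day, 51.9 in 3-day and 64.9 in 7-day. Its 7-day log2 ratio to Ctrl was 0.69 (0.58 to 0.80), the highest of the 40. KIF20A (MKLP2, the motor that carries the passenger complex to the central spindle) was at 13.9, 5.80, 7.81 and 6.70 CPM, and its ratio of −1.05 (−1.32 to −0.79) was the lowest. KIF20A was the single member called lower in 7-day, and its 7-day to 1-day interval included 0 (0.21, −0.10 to 0.51).

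The remaining cytokinesis genes lay below Ctrl in 1-day and above it in 7-day. KIF23 (MKLP1, of the centralspindlin complex) was at 35.3, 14.6, 35.8 and 41.6 CPM. PRC1, which bundles the midzone microtubules, was at 96.8, 49.8, 99.3 and 110.5 CPM, and ECT2, which activates RhoA at the cell equator, was at 48.1, 24.0, 41.9 and 53.4 CPM. ANLN therefore had 2.89 UMIs per KIF20A UMI in Ctrl (2.59 to 3.24), 3.13 in 1-day (2.65 to 3.70), 6.65 in 3-day (5.82 to 7.62) and 9.69 in 7-day (8.27 to 11.4). KIF23 had 2.54, 2.51, 4.58 and 6.21 UMIs per KIF20A UMI. Ctrl and 1-day were alike in these pairs and both later libraries were higher. KIF20A was the lowest member against Ctrl in both later libraries, and ANLN was the highest in 7-day. Higher later ratios in these pairs therefore follow from the choice of genes. KIF20A rests on 170 UMIs in 7-day, and its 7-day log2 ratio was −0.66 in the first part of the cells and −1.54 in the second.

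TOP2A and MKI67 were called lower in 1-day and remained below Ctrl. TOP2A (topoisomerase IIα, which untangles chromosomes) was the most abundant member, at 695 CPM in Ctrl, 223 in 1-day, 483 in 3-day and 502 in 7-day, and its log2 ratios were −1.64, −0.53 and −0.47. MKI67 (Ki-67, the coat of mitotic chromosomes and a marker of cycling cells) was at 80.6, 33.7, 60.7 and 69.3 CPM. TOP2A alone held 20833 of the 86375 member UMIs in Ctrl and 12751 of 70961 in 7-day. Its UMIs per CKS1B UMI were 2.37 in Ctrl and 1.60, 1.57 and 1.51 in the treated libraries, so this pair did not return to the Ctrl value. In 7-day TOP2A lay below Ctrl and CKS1B above it (0.18), so a lower 7-day ratio follows from the choice of genes.

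The share of cells with at least 1 UMI of a member (positive cells) was lower in 1-day than in Ctrl for all 40 genes. The part of all genes with a lower share is not given. The median share over the 40 genes was 35.9% in Ctrl, 15.3% in 1-day, 31.3% in 3-day and 37.5% in 7-day, in cells thinned to 18000 UMIs. The 1-day differences ran from −2.19 percentage points (CDC25C) to −50.7 (TOP2A), with a median of −19.3. TOP2A was found in 88.3% of Ctrl cells and 37.6% of 1-day cells, then in 62.8% and 74.3%. CKS1B was the member found in most cells of every library, at 94.8%, 67.1%, 86.4% and 88.7%. CDK1 was found in 43.0%, 11.2%, 32.2% and 37.5% of cells.

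The return of positive cells was incomplete for some genes and went past Ctrl for others. Between 1-day and 7-day the share was higher for all 40 genes, with the widest gap for CKS2 (37.4% to 81.4%). In 3-day the share was still below Ctrl for 33 of the 40. In 7-day it was below Ctrl for 19 and above it for 21, from −14.0 points (TOP2A) to 14.3 points (AURKB, 29.3% in Ctrl and 43.5% in 7-day). The same counts over all genes are not given, so these do not set the mitosis genes apart. BIRC5 was found in 84.7%, 45.6%, 61.9% and 72.5% of cells, below Ctrl in 7-day although its summed level was nearly the same. Without thinning, the shares of TOP2A were 92.2%, 45.8%, 74.6% and 83.7%, and those of AURKB 40.4%, 16.7%, 43.1% and 60.5%.

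On a relative scale, UMIs per positive cell differed less between libraries than the share of positive cells for CDK1 and MKI67, but not for CKS1B. CDK1 had 1.92, 1.89, 1.96 and 1.71 UMIs per positive thinned cell and MKI67 had 2.30, 2.39, 2.41 and 2.39. TOP2A went from 13.1 to 9.05 in 1-day, and CKS1B from 5.55 to 3.51, while CDC20 went the other way, from 1.71 to 2.38. Most members average under 3 UMIs per positive cell, so this measure has little room to move. No cell type that lacks these genes is in the libraries to measure background from free RNA. In cells with 5 or fewer of the other 39 members, the median share positive over the members was 6.90% in Ctrl, 2.79% in 1-day, 4.31% in 3-day and 6.51% in 7-day.

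**Figure D2:**
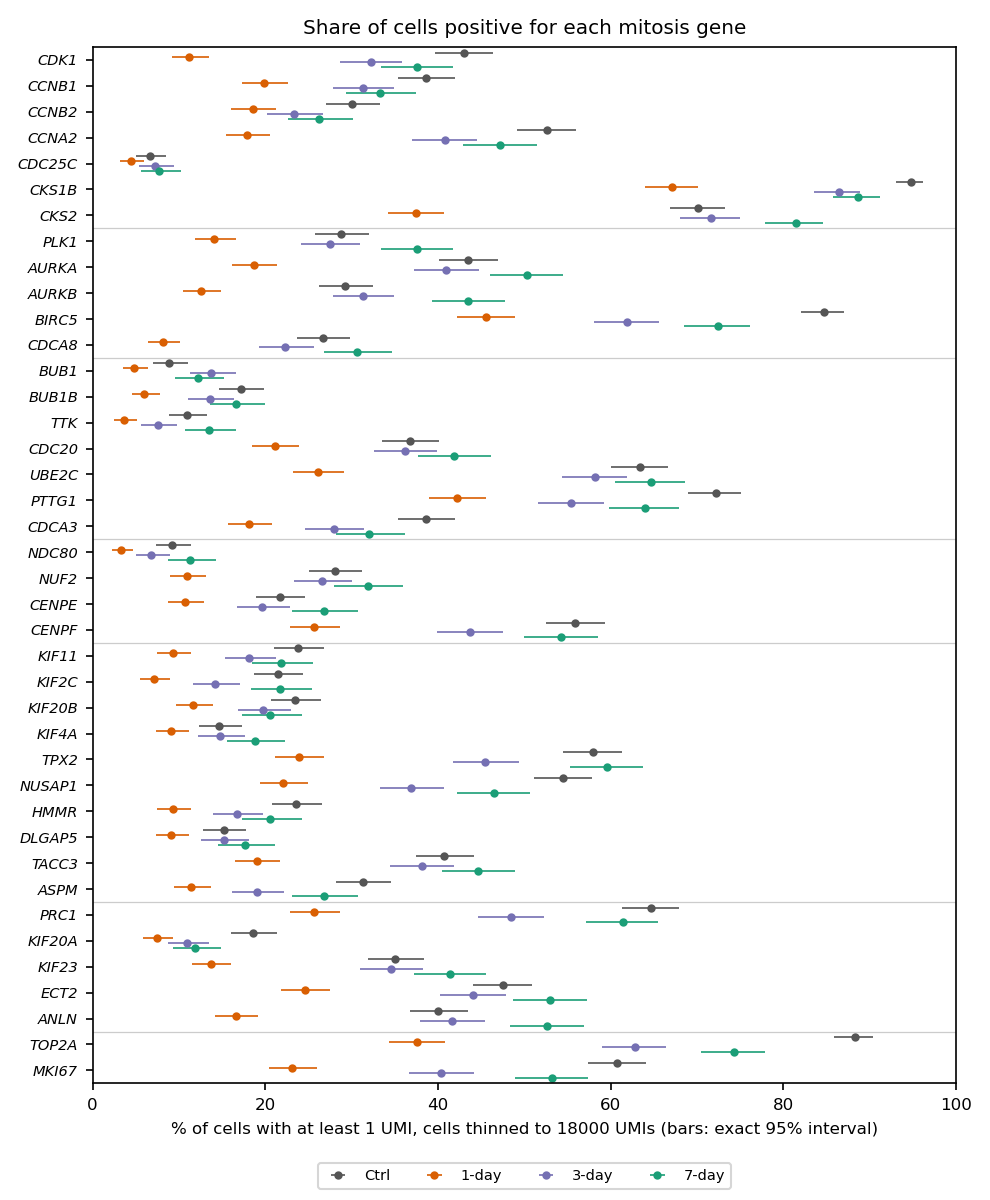
Percentage of cells with at least 1 UMI of each mitosis gene in Ctrl, 1-day, 3-day and 7-day, after thinning to 18000 UMIs per cell, with exact binomial 95% intervals as bars. The 1-day point is the lowest of the 4 for every gene, and TOP2A shows the widest spread, from 37.6% to 88.3%.

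The members were detected together in a subset of cells, and that subset was smallest in 1-day. A thinned cell had a median of 15 of the 40 genes in Ctrl, 3 in 1-day, 10 in 3-day and 16 in 7-day. At least 20 genes were detected in 33.5% of Ctrl cells (283 of 844, exact binomial 95% interval 30.3% to 36.8%) and in 14.7% of 1-day cells (132 of 900, 12.4% to 17.1%). The shares in 3-day and 7-day were 32.1% (217 of 677, 28.5% to 35.7%) and 40.3% (221 of 549, 36.1% to 44.5%). At the other end, 11.7%, 67.6%, 37.1% and 23.7% of cells had 5 or fewer.

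The limit of 20 is a point on a range and does not mark a cell type. Within 2 genes of it lay 160 cells in Ctrl, 43 in 1-day, 91 in 3-day and 81 in 7-day. Cells with 6 to 19 members made up 54.7%, 17.8%, 30.9% and 36.1% of the libraries. Ctrl thus had most of its cells in the middle, 1-day had most at the low end, and 3-day and 7-day had cells at both ends. At the limit of 20, the 3-day share at the high end was near that of Ctrl while its share at the low end was higher. At 15 or more members the 3-day share was lower, 41.2% (37.5% to 45.0%) against 52.6% (49.2% to 56.0%) in Ctrl. At 25 or more the shares were 17.6% and 17.7%.

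**Figure D3:**
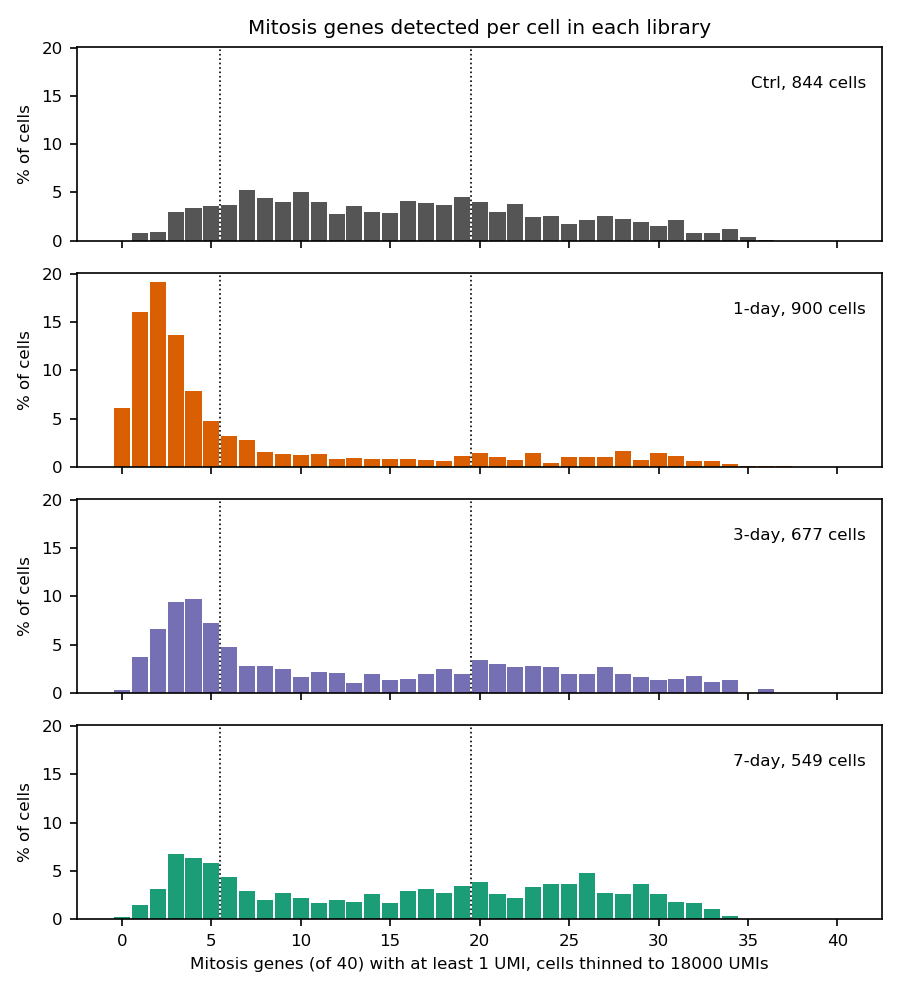
Percentage of cells (vertical axis) with each number of the 40 mitosis genes detected (horizontal axis) in each library after thinning to 18000 UMIs, with dotted lines at the limits of 5 or fewer and 20 or more. The 1-day cells pile up at the low end, where 67.6% have 5 or fewer, while Ctrl peaks between the limits and 3-day and 7-day spread to both ends.

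Member UMIs were accordingly concentrated in fewer cells in 1-day. The median cell held 35 member UMIs in Ctrl, 4 in 1-day, 17 in 3-day and 38 in 7-day. The 10% of cells with the most member UMIs held 30.7%, 58.7%, 37.2% and 29.3% of them. In 1-day, 55 of 900 cells (6.11%) had no member UMI, against 0 of 844 in Ctrl, which by the exact interval allows up to 0.436%.

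In the cells that carried many of the other members, most mitosis genes were not lower in 1-day. For each gene, cells were taken that had at least 20 of the other 39 members detected, so that the gene itself did not select them. The members were detected together, so the limit still picked cells high in these genes in every library. A smaller 1-day difference than over all cells follows in part from this choice. Those cells numbered 249 to 283 in Ctrl and 119 to 132 in 1-day, depending on the gene. The median 1-day to Ctrl log2 ratio in them was 0.23, against −1.14 over all thinned cells. There, 28 of the 40 ratios were positive and 12 negative, and the counting interval lay above 0 for 17 genes and below 0 for 3. In cells with 6 to 19 of the other 39, the median 1-day ratio was −0.39, with 17 intervals below 0 and 5 above. In cells with 5 or fewer of them it was −1.29, with 20 intervals below 0 and 0 above. The same counts over all genes in any of these cells are not given. The 1-day cells past the limit of 20 had a median of 27 members, against 25 in Ctrl, and the part of that difference in the ratios was not tested.

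CDC20 led the genes that were higher in these 1-day cells, with 67.8 CPM in Ctrl (60.6 to 75.6), 140 in 1-day (125 to 157), 92.2 in 3-day and 77.4 in 7-day, a 1-day log2 ratio of 1.05 (0.82 to 1.28). CCNB2 had 56.8, 93.0, 51.3 and 42.8 CPM, and CCNB1 had 104, 149, 103 and 81.0 CPM. For all 3 of them the 1-day library was the highest of the 4 in these cells, although it was the lowest over all cells. DLGAP5 and KIF4A had log2 ratios of 0.77 and 0.71.

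The 3 genes that were lower in 1-day also within these cells were CDK1, KIF2C and TOP2A. CDK1 had 83.2, 58.5, 85.1 and 65.4 CPM there, a 1-day log2 ratio of −0.51 (−0.80 to −0.22). KIF2C had 40.6, 27.8, 27.9 and 31.6 CPM, with a ratio of −0.55 (−0.97 to −0.14). TOP2A had 1467, 1106, 1201 and 1014 CPM, with a ratio of −0.41 (−0.48 to −0.34). TOP2A was found in 98.3% to 100% of these cells in every library, so the difference lay in UMIs per cell.

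**Figure D4:**
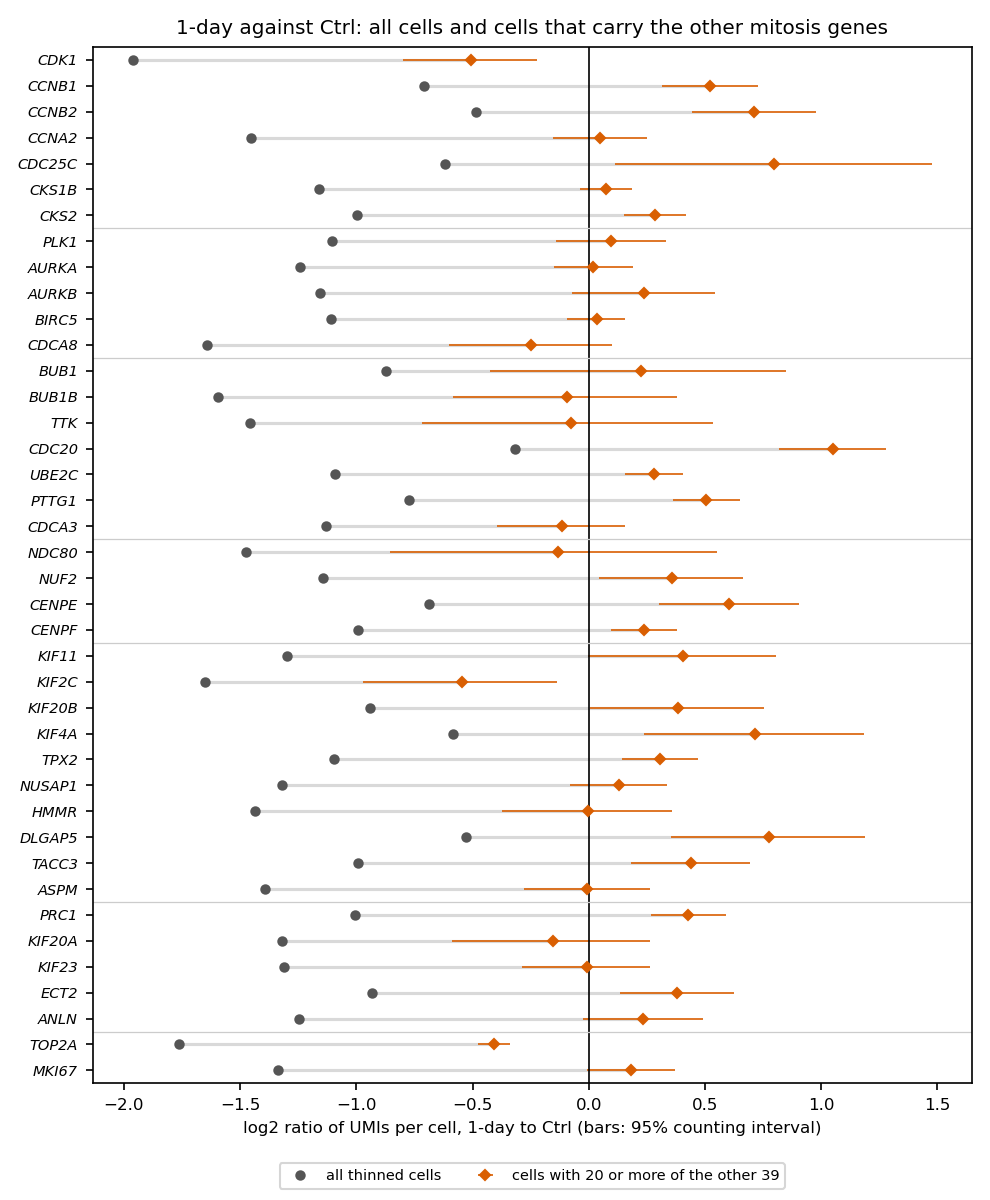
Log2 ratio of 1-day to Ctrl for each mitosis gene over all thinned cells (grey circles) and in cells with 20 or more of the other 39 members (orange diamonds, 95% counting intervals as bars). The circles all lie below 0 and have a median of −1.14, while the diamonds centre on 0.23, with CDC20 at 1.05 and the intervals of CDK1, KIF2C and TOP2A below 0.

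The same split in 7-day against Ctrl gave a median log2 ratio of 0.08 in cells with 20 or more of the others. KIF20A was lower there too, with 32.4, 29.1, 23.1 and 14.6 CPM and a 7-day ratio of −1.15 (−1.61 to −0.71). Its 1-day ratio in these cells was −0.16 (−0.59 to 0.26). ANLN was higher, with 73.7, 86.7, 113 and 116 CPM and a 7-day ratio of 0.65 (0.45 to 0.86), and AURKB had 51.6, 60.8, 76.1 and 75.4 CPM, a ratio of 0.55 (0.30 to 0.80). CDCA3 (−0.72), TOP2A (−0.53), ASPM (−0.47) and CCNB2 (−0.41) were below Ctrl. In cells with 5 or fewer of the others, a limit that picks cells low in these genes, levels were low in every library. CDK1 had 11.0, 1.82, 4.19 and 3.82 CPM there, and TOP2A had 41.8, 10.3, 16.5 and 17.2 CPM. Cells at or under this limit were not alike in the libraries, with a mean of 3.68 members in Ctrl, 2.23 in 1-day, 3.25 in 3-day and 3.48 in 7-day, and the part of that placement in the lower 1-day values was not tested.

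Genes of neighbouring processes, listed by function, are given beside the members as counts and medians. Over all genes, 10.8% were called lower and 10.5% higher in 1-day, and 8.18% and 13.1% in 7-day. Among 42 other mitosis genes, 25 were called lower in 1-day and 0 higher, with a median log2 ratio of −1.14, from CDCA5 (sororin, −2.29) and KIF18B (−2.09) to CENPW (−0.41) and TROAP (−0.25). The 42 S phase genes had 39 called lower and a median of −1.78, from EXO1 (−2.82) and CDC6 (−2.64) to NASP (−0.85) and UBR7 (−0.76). In 7-day their medians were 0.08 and −0.11, with 0 called in either direction in both lists. Replication genes thus lay further below Ctrl in 1-day than mitosis genes did, by their medians.

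The structural machinery differed less. Among 17 condensin and cohesin subunits and regulators, 5 were called lower in 1-day and 0 higher (all genes 10.8% and 10.5%), with a median of −0.58. The lowest were NCAPH (−1.61) and NCAPD3 (−1.54), which belong to condensin. The cohesin loader NIPBL (0.12) and releaser WAPL (0.08) were the highest. Of 14 APC/C core subunits, 0 were called lower or higher in 1-day (all genes 10.8% and 10.5%), and the median was −0.27. ANAPC1 (−0.84) and ANAPC15 (−0.66) were lowest and CDC16 (0.06) and CDC27 (0.16) highest. Of the members that work with the APC/C, UBE2C (−0.94) lay outside this range and CDC20 (−0.37) inside it.

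Among 23 regulators of mitotic transcription, 9 were called lower in 1-day (39.1%, all genes 10.8%), with a median of −0.47. The 2 called higher made up 8.70%, a share below the 10.5% of all genes. The lowest were E2F2 (−3.79) and E2F8 (−2.53; E2F8 is also in the S phase list), both of which are induced by E2F. FOXM1 and MYBL2, the activators that work with MuvB at CHR promoters, were named after their values were seen. FOXM1 was at 51.2, 19.8, 38.0 and 46.9 CPM and MYBL2 at 97.7, 42.4, 85.8 and 86.5 CPM, both lowest in 1-day and highest in Ctrl. The highest were LIN37 (1.19, from 14 UMIs in Ctrl and 35 in 1-day), a subunit of MuvB, and CDKN1A (1.94).

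CDKN1A (p21, an inhibitor of CDKs and a direct TGF-β target) stayed high while the mitosis genes returned. It was at 46.4 CPM in Ctrl, 179 in 1-day, 170.4 in 3-day and 167 in 7-day. Its log2 ratios to Ctrl were 1.94 (1.86 to 2.03), 1.88 (1.79 to 1.96) and 1.85 (1.76 to 1.94). The mitosis genes had medians of −1.07, −0.10 and 0.11 in the same libraries.

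**Figure D5:**
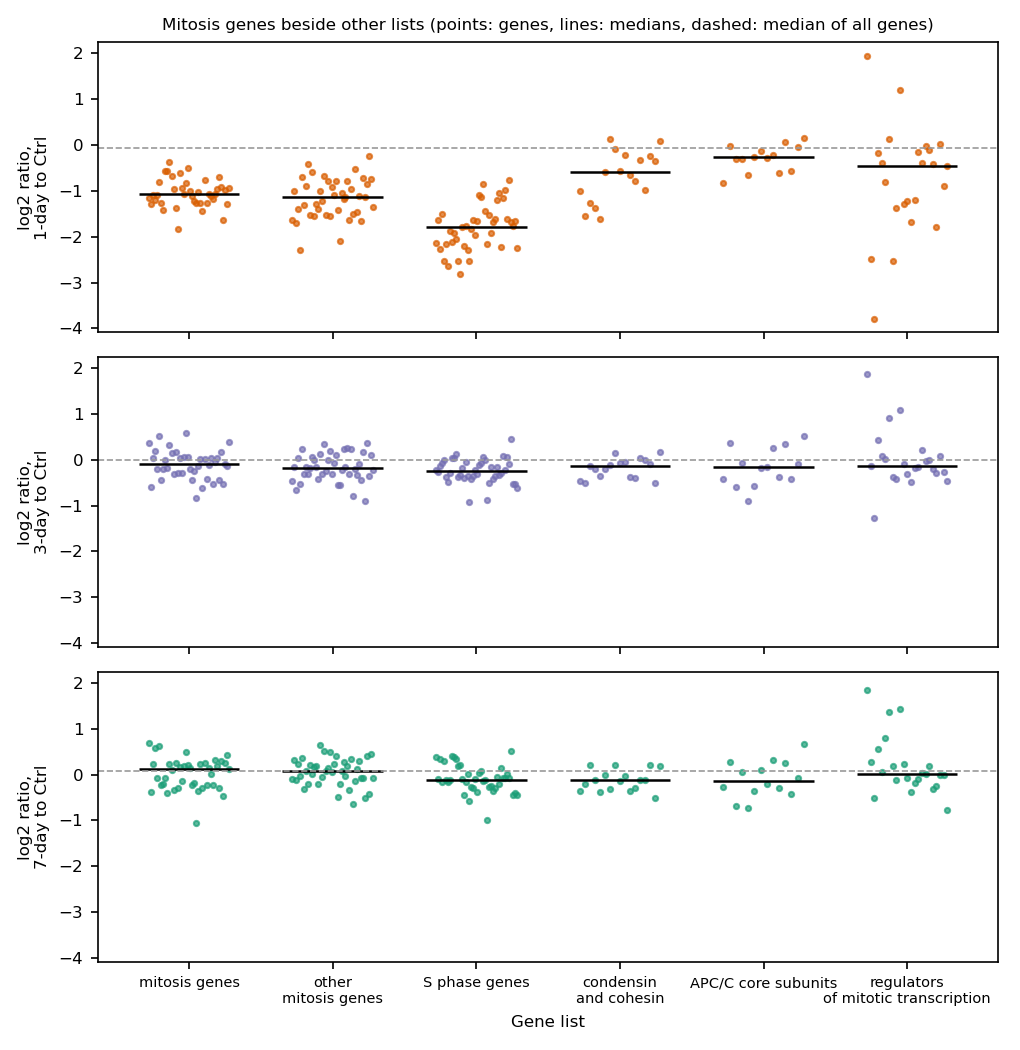
Log2 ratio to Ctrl in 1-day, 3-day and 7-day (rows) for each gene of the mitosis list and of the 5 other lists, with 1 point per gene, black lines at list medians and a dashed line at the median of all 13044 genes. In 1-day the S phase genes have the lowest median (−1.78) and the APC/C core the nearest to 0 (−0.27), and in 7-day all 6 medians lie within 0.14 of 0.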

How the data were processed

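Suspensions of OVCA420 cells were processed by the study with the 10x Genomics 3′ kit (version 3), and the submitters' processing notes name Cell Ranger 2.0.1 and GRCh38. The authors deposited raw counts of UMIs. The matrices held here end before the number of entries in their size lines, so the last, incomplete cell of each was dropped, and cells not read were not analysed here. Cells with more than 200 genes (the study's filter) and at most 20% mitochondrial UMIs were retained, including those marked by Scrublet (scanpy 1.11.5).

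UMIs were summed per library and compared as log2 ratios of CPM among genes with at least 100 UMIs. Levels have exact Poisson, ratios conditional binomial and shares exact (Clopper-Pearson) binomial 95% intervals, which cover counting error only. Those of levels and ratios treat UMIs as independent and leave out the spread between cells. Shares come from cells thinned to 18000 UMIs (seed 1), with shallower cells left out. Called means at least 2-fold, with no test, since each group is 1 library. The steps were tested on simulated data.

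The members, their roles and the other lists were chosen with earlier results of these data known. All 40 members are named, with fuller values for the highest and lowest of each role in 7-day against 1-day and for those a result turns on, and so are the 2 lowest and 2 highest genes of each other list in 1-day. In GENCODE release 44, CKS1B has 7 named pseudogenes, UBE2C 5, AURKA and DLGAP5 2 each, and CCNB2, AURKB, BUB1, CDC20, CDCA3 and MKI67 1 each; reads that match both places may be split or lost, so these levels are uncertain. Alternatives were size factors, cell means, thinning, mitochondrial limits, doublet removal, no minimum of UMIs, parts of the cells, other thresholds and a shorter promoter window.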

Additional observations from a re-analysis of the deposited data

Results flagged for a closer look

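Of the 40 mitosis genes, 17 lay below Ctrl in 1-day and above Ctrl in 7-day, with both counting intervals clear of 0. The share of all genes that met both conditions is not given, and all genes had a median 7-day log2 ratio of 0.08. They drew attention because the direction against the same Ctrl library differs between time points. With 1 library per time point the difference was not tested, and comparisons of both time points share Ctrl.

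Among the CDK subunits, mitotic kinases and passenger complex, the log2 ratios in 1-day and then 7-day were those of CKS1B (−1.07 and 0.18), CKS2 (−0.84 and 0.49), PLK1 (−1.07 and 0.31), AURKA (−1.10 and 0.23), AURKB (−1.20 and 0.58) and CDCA8 (−1.38 and 0.25). Among the checkpoint and anaphase genes, the log2 ratios in 1-day and then 7-day were those of BUB1 (−0.81 and 0.62), TTK (−1.28 and 0.42), CDC20 (−0.37 and 0.22) and UBE2C (−0.94 and 0.12). Among the spindle genes, the log2 ratios in 1-day and then 7-day were those of KIF4A (−0.77 and 0.25), TPX2 (−0.97 and 0.25) and TACC3 (−0.92 and 0.30). Among the cytokinesis genes, the log2 ratios in 1-day and then 7-day were those of PRC1 (−0.96 and 0.19), KIF23 (−1.28 and 0.24), ECT2 (−1.0 and 0.15) and ANLN (−1.15 and 0.69). The 7-day ratios ran from 0.12 to 0.69. For 16 of the 17 genes the 7-day level was above Ctrl in both parts of the cells in barcode order, with size factors and after thinning. The exception was UBE2C, at −0.020 in the first part of the cells. This count takes direction alone, without intervals. Some values were near 0, such as ECT2 at 0.046 in the first part and CDC20 at 0.022 in the second.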

How the results depend on the processing

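No paired analysis was possible because each group is 1 library and no result comes from a test. Over all alternatives, 785 of 960 values of single members against Ctrl stayed within the counting interval of the reported value and on its side of 0 where that interval excluded 0. Those that stayed were 228 of 320 in 1-day, 267 of 320 in 3-day and 290 of 320 in 7-day, so the 1-day values moved most often. Of the 960, 38 changed sign, 34 of them in 3-day and 4 in 7-day, over 15 members, and 0 in 1-day. For 33 of the 38 the interval of the reported value included 0. The other 5 were CKS1B in 3-day (−0.027 as a mean over cells and −0.037 after thinning), CDCA8 in 3-day (−0.079 after thinning), and, in the first part of the cells in barcode order, BIRC5 (0.019) and UBE2C (−0.020) in 7-day. Of 179 values for lists and shares, 154 stayed. The parts of the cells moved the most: the median 1-day log2 ratio was −1.34 in the first and −0.74 in the second, the 3-day median was 0.013 in the second, the members called lower in 1-day numbered 11 in the second, those called lower in 7-day 0 in the first, those called higher in 3-day than in 1-day 25 and 7, and those called higher in 7-day than in 1-day 12 in the second. The cause was not tested, the parts hold fewer cells, and the share of all genes called within them is not given. By cell means, 1 member was called lower in 3-day. At 1.5-fold, a looser threshold by construction, 3 were called lower in 3-day (17.7% of all genes), 2 higher in 7-day (23.0%) and 35 higher in 3-day than in 1-day (15.3%). The share of cells with 20 or more members in Ctrl, 1-day, 3-day and 7-day was 50.7%, 17.9%, 42.0% and 57.3% without thinning. It was 52.6%, 18.6%, 41.2% and 54.1% at 15 or more members and 17.7%, 9.67%, 17.6% and 24.8% at 25 or more. In each of these 1-day was the lowest. In the parts of the cells, an alternative chosen after seeing the data, the shares were 35.4%, 12.5%, 33.1% and 44.0% in the first and 31.6%, 16.8%, 31.0% and 36.5% in the second. TTTGAA was in 48.6% of member promoters within 150 bases before the start, a shorter window, beside 7.44% of all promoters. Size factors moved the median of all genes from −0.07, 0.00 and 0.08 to 0.01, 0.03 and 0.02. With them, 19 members were called lower in 1-day and 19 higher in 7-day than in 1-day, and the share of all genes called is not given. Depth limits CDC25C, NDC80, TTK, BUB1 and KIF20A, which had the fewest UMIs, and cells not read were not analysed here.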

Other observations

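Within the S phase list, UHRF1, which helps to maintain DNA methylation at replication forks, had the highest 7-day log2 ratio to Ctrl (0.51). POLA1, a subunit of DNA polymerase α, had the lowest (−0.999). Among the other mitosis genes, FAM64A (PIMREG, a mitotic protein) was highest in 7-day (0.65) and MIS18A, which helps to load CENP-A, was lowest (−0.64). These genes were named after their values were seen, each rests on 1 library per time point, and the differences were not tested.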
